A study of Mus musculus with 4 samples.

Results

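The proteins that clot blood and those of the complement system are made largely by hepatocytes, and 37 of their genes were followed in mouse liver before and 30 h after partial hepatectomy, with and without knockdown of Mcu, which encodes the channel that lets calcium into mitochondria. The genes were chosen by name and not by a measured value, though earlier results of these data were known. They were 21 genes of clotting and fibrinolysis and 16 of complement. A probe set carrying that 1 symbol was named for 34 of the 37, out of 19505 genes named on the arrays; Klkb1, Cpb2 and C3 had none and were not analysed here. Each of the 34 had a single probe set. The 34 comprised 19 genes of clotting and fibrinolysis and 15 of complement.

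There were 4 groups with 1 microarray each, so no value below has an error and no test was run. Per the labels, the mice were male and of strain C57BL6J; the treatment protocol gives them as MCUloxp/loxp (floxed Mcu), 10 to 12 weeks old when injected through the tail vein. The knockdown mice received AAV8-TBG-Cre, a virus in which the hepatocyte-directed TBG promoter drives Cre recombinase, so Mcu in other liver cells was not targeted. The control littermates, labelled as wild type, received AAV8-TBG-Null, the same kind of virus without Cre. Surgery removed 70% of the liver 5 weeks later. Control and knockdown liver were each sampled at 0 h and at 30 h, and the series text states pools of 4 animals. No group had surgery without removal of liver, so the operation and the time of sampling cannot be told apart from the loss of tissue. The sample descriptions speak of ethanol feeding, which no other label does, and the knockdown 30 h sample is described there as 1 h; the titles were followed. The genotype field of both knockdown samples names a floxed gene other than Mcu, against the treatment protocol, and that conflict was not resolved; the level of Mcu on each array is given below.

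Clotting is a cascade of proteases that circulate as inactive precursors. Each activates the next until thrombin cuts fibrinogen into fibrin; antithrombin, heparin cofactor II and the protein C system restrain it, and plasmin dissolves the clot. Complement is a second cascade: lectins, antibodies or foreign surfaces start it, convertases cleave C3 and C5, and C5 to C9 assemble into a membrane pore. Fibrinogen and several complement components are known as acute-phase proteins, whose genes respond to interleukin-6 through STAT3 and C/EBP factors.

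The promoters of 8 genes on which the results turn are printed here, so that genes with like differences can be compared. They are the 250 bases before the annotated start, from RefSeq in build GRCm38.p6, 5′ to 3′ on the strand of the gene; the sources used here do not give the build behind the probe sets. Promoters were found for 29 of the 37 genes, 26 of them among the 34 measured. Capitals mark matches, on either strand, to 5 motifs: TTCNNNGAA (STAT), CTGGGAA (the core of the interleukin-6 element of fibrinogen genes), TTNNGCAA (C/EBP), CAAAGTCCA (HNF4) and an HNF1 motif. The STAT and CTGGGAA motifs can overlap. The fibrinogen chain genes lie side by side, with Fgg at chr3:83007474-83007723 (plus strand), Fga at chr3:83025903-83026152 (plus strand) and Fgb at chr3:83049864-83050113 (minus strand).
Fga: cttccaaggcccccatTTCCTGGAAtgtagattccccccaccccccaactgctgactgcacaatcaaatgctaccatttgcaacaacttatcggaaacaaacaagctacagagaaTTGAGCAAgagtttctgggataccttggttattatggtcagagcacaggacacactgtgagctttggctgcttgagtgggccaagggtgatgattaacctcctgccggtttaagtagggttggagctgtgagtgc
Fgb: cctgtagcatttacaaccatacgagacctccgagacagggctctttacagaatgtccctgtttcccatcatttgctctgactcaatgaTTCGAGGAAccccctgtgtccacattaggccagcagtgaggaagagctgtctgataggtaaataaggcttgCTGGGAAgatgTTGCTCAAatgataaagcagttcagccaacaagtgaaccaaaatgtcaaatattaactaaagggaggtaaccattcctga
Fgg: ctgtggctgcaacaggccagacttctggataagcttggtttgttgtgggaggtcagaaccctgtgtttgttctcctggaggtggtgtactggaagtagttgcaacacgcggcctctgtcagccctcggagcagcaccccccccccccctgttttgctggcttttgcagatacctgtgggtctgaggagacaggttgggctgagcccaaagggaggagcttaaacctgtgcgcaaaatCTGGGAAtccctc
The next pair, C4bp at chr1:130661619-130661868 (minus strand) and Pros1 at chr16:62854057-62854306 (plus strand), belong to the genes with the largest positive difference after hepatectomy.
C4bp: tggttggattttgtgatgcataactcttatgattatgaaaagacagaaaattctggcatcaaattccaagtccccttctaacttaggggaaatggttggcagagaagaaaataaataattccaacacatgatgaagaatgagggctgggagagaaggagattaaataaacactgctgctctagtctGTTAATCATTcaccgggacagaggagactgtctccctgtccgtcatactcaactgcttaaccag
Pros1: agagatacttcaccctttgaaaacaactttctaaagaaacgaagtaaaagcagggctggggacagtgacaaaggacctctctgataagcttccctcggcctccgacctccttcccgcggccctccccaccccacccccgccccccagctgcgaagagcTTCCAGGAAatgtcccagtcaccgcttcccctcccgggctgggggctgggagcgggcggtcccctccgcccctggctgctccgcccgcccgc
The last 3, Mbl2 at chr19:30232678-30232927 (plus strand), C6 at chr15:4726960-4727209 (plus strand) and C8b at chr4:104766067-104766316 (plus strand), belong to genes that read lower after hepatectomy.
Mbl2: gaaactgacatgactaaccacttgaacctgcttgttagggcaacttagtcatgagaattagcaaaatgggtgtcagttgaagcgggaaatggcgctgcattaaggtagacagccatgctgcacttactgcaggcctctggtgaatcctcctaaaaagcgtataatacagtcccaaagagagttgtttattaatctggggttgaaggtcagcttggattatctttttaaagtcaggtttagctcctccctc
C6: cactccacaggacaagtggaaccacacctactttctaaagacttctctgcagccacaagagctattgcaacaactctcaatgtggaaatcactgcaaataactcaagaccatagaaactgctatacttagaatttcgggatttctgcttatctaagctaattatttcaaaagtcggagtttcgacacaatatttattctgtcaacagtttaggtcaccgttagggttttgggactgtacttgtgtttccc
C8b: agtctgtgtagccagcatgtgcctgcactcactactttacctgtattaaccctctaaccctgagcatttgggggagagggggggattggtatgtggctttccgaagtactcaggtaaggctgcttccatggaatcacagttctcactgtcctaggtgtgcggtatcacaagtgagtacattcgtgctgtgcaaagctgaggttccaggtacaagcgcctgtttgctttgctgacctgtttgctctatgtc

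Among these, Fga held a STAT and a C/EBP match, Fgb a STAT, a CTGGGAA and a C/EBP match, and Fgg a CTGGGAA match from -13 to -7 relative to the start. Pros1 held a STAT match and C4bp an HNF1 match, while the promoters of Mbl2, C6 and C8b held none of the 5 motifs in this window. Over the 29 genes, 6 held the STAT motif (20.7%), 4 held CTGGGAA (13.8%), 7 held the C/EBP motif (24.1%), 3 held the HNF1 motif (10.3%) and 0 held the HNF4 motif. Of all 32851 mouse promoters of that length, counted by promoter and not by gene, the shares were 7.02%, 9.10%, 9.56%, 0.371% and 0.384%. Genes with these motifs did not all read higher at 30 h. F9 held a STAT and a C/EBP match and differed by log2 -0.07 in control and -0.30 in knockdown liver. C8a and Masp2 held a STAT match and differed by 0.04 (sign unsettled) and -0.45, and by 0.30 and -0.06. C9 and F11 held a C/EBP match and differed by -0.42 and -0.22, and by 0.00 and -0.74. Fga, Fgb and Pros1, the other measured genes with either motif, read higher in both. These are letter matches, counted as a description, and no link to the differences was tested.

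The knockdown was visible in Mcu itself, which read 4.77 and 4.30 in control liver at 0 h and 30 h and 2.83 and 2.63 in knockdown liver, on the log2 scale of the deposited values. Over 22206 probe sets, the correlation of any 2 arrays lay between 0.953 and 0.974. Hepatocyte markers (Alb, Ttr, Apoa1 and others) were bright on every array. The mean log2 value of the 9 measured of 10 was 11.15 and 11.43 in control liver at 0 h and 30 h. In knockdown liver it was 11.25 and 11.35. Single markers differed in this: in the same order Hpx read 11.56, 12.63, 11.83 and 12.55, and Alb 12.65, 12.65, 12.69 and 12.63. Marker lists of other cells were dimmer and also moved between arrays. The mean of 10 sinusoidal endothelial markers was 4.77, 4.78, 5.08 and 4.49 in control 0 h, control 30 h, knockdown 0 h and knockdown 30 h; that of 10 Kupffer and macrophage markers was 5.15, 5.78, 5.54 and 5.47, and that of 10 stellate markers 5.07, 5.35, 5.41 and 5.23. For 5 of 6 cholangiocyte markers it was 3.48, 3.40, 3.14 and 3.45, for 5 of 6 neutrophil markers 2.75, 3.14, 3.01 and 3.25, for 5 of 8 platelet markers 3.65, 3.84, 3.98 and 4.29, and for 4 of 6 erythroid markers 5.06, 4.16, 4.66 and 4.33. No marker was listed at 0, but neither was any probe set, the lowest value on any array being 0.94. The cholangiocyte and neutrophil means lay below the array medians (3.75 to 3.84), and so did the platelet mean in control liver at 0 h. The part of these shifts in the results below was not tested. In whole liver, fewer cells of a type and less RNA per cell cannot be told apart.

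Differences are log2 differences between 2 arrays; a response is 30 h minus 0 h. They are set beside 9759 bright genes, those with a mean over the 4 arrays at or above the median of all genes, and beside the 1952 genes at or above percentile 90. All 34 genes were bright, and 31 of them lay at or above percentile 90. Bright genes drifted as a whole between arrays: in the control response their median was 0.10, and that of the genes above percentile 90 was 0.22. Each direction was therefore checked in 5 scalings of the arrays: the deposited one, centring on the array median, quantile normalization, cyclic loess, and centring on the genes above percentile 90. The last moves the median of all genes by -0.23 in the control response, 0.19 in the knockdown effect at 30 h and 0.28 in the difference of responses. Where a direction of the 34 genes is given without remark, it was the same in all 5.

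Most clotting and complement genes had close values in the 4 livers. The 4 values of a gene spanned less than 1 log2 unit in 33 of 34 genes, the exception being Mbl2, and less than 0.5 in 22 (64.7%). Of the genes above percentile 90, 87.7% spanned less than 1 and 45.1% less than 0.5; of bright genes, 83.9% and 34.7% did. The narrowest was Plg, the precursor of plasmin, with 10.61, 10.73, 10.61 and 10.60 in control 0 h, control 30 h, knockdown 0 h and knockdown 30 h. The dot plot of all values shows most genes as tight clusters of 4 points.

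**Figure D1:**
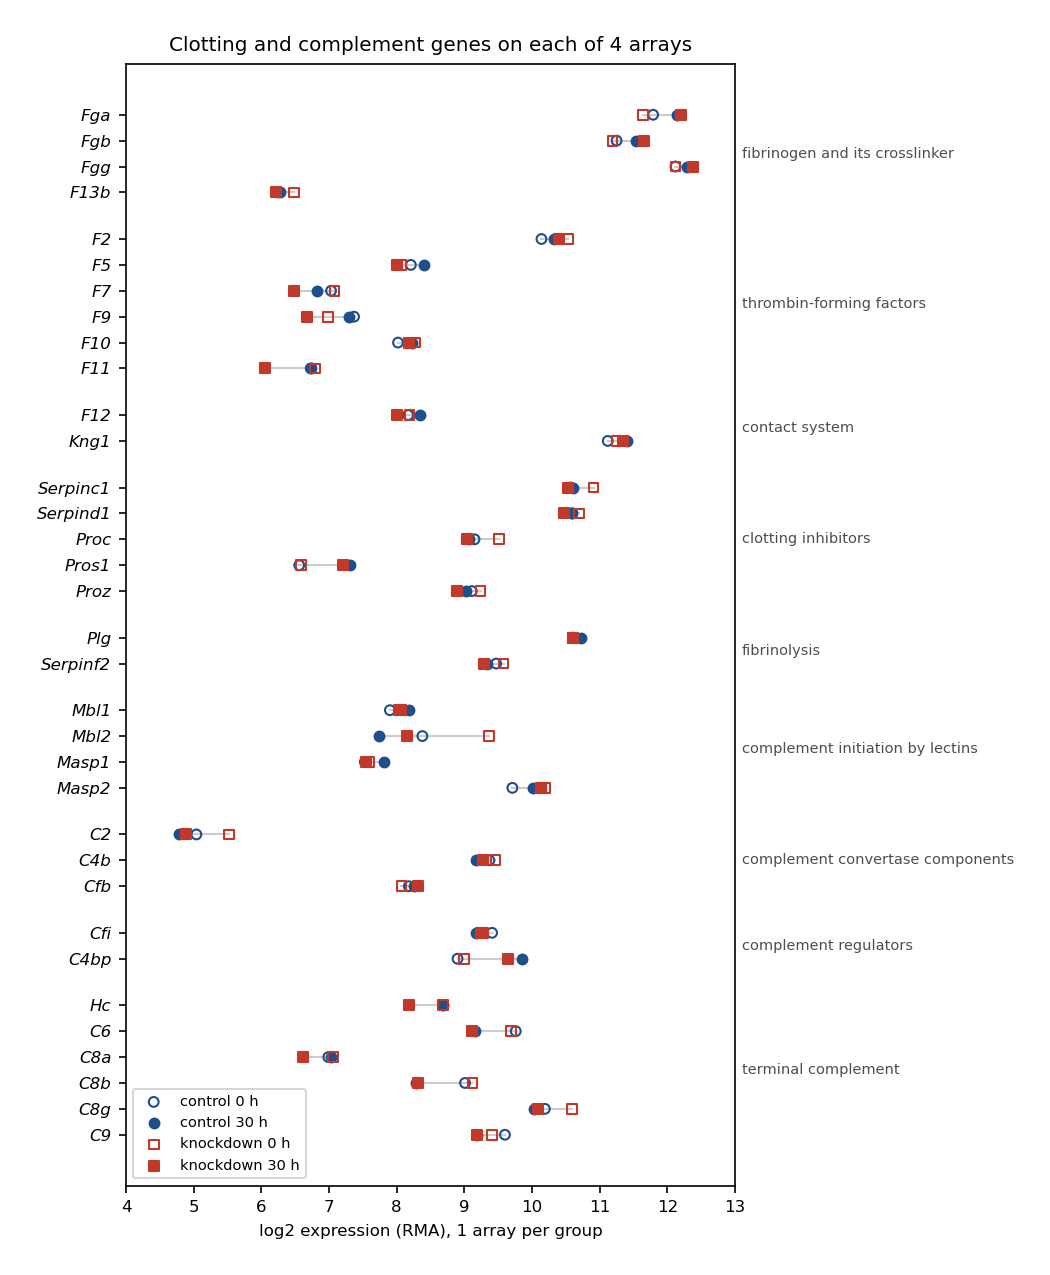
Log2 expression of the 34 genes (rows, grouped by role) on the arrays of control liver (blue circles) and knockdown liver (red squares) at 0 h (open) and 30 h (filled); each point is 1 array and the grey line spans the 4. Mbl2 spans 1.63 log2 units, C4bp 0.95 and C8b 0.84, while Plg spans 0.13.

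After hepatectomy no gene of the 34 was 2-fold higher or lower in control liver, and 1, Mbl2, was 2-fold lower in knockdown liver. Among bright genes of control liver 5.98% were higher by 2-fold or more and 1.61% lower; in knockdown liver the shares were 2.64% and 2.74%. For genes above percentile 90 they were 6.76% and 1.43% in control liver and 3.18% and 3.28% in knockdown liver. At 1.5-fold, 2 of the 34 were higher and 3 lower in control liver, against 17.5% and 8.05% of bright genes, and 2 were higher and 5 lower in knockdown liver, against 9.12% and 12% of bright genes. For genes above percentile 90 these shares were 22% and 5.28% in control liver and 8.56% and 11.5% in knockdown liver. The 2 higher genes were C4bp and Pros1 in both genotypes. Mbl2 and C8b were in the lower group of both, C6 in that of control liver, and F11, C2 and F7 in that of knockdown liver. Past 1.5-fold in all 5 scalings were 3 in control liver (C4bp, Mbl2 and C8b) and 3 in knockdown liver (Mbl2, C8b and F11); the others fell short in at least 1. The median response was 0.03 in control liver, with 18 genes above 0 and 13 below, where 58.2% and 40.8% of bright genes were. Of the genes above percentile 90, 68.5% were above 0 and 30.2% below. In knockdown liver the median was -0.21, with 7 above and 27 below, against 46.2% and 53.1% of bright genes, whose median was -0.04. There 46.1% of the genes above percentile 90 were above 0 and 53.1% below. The control median depends on the scaling: it was -0.23 after quantile normalization, -0.18 after cyclic loess and -0.20 when centred on the genes above percentile 90. In those scalings 9, 8 and 8 genes lay above 0. The knockdown median stayed between -0.26 and -0.16.

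**Figure D2:**
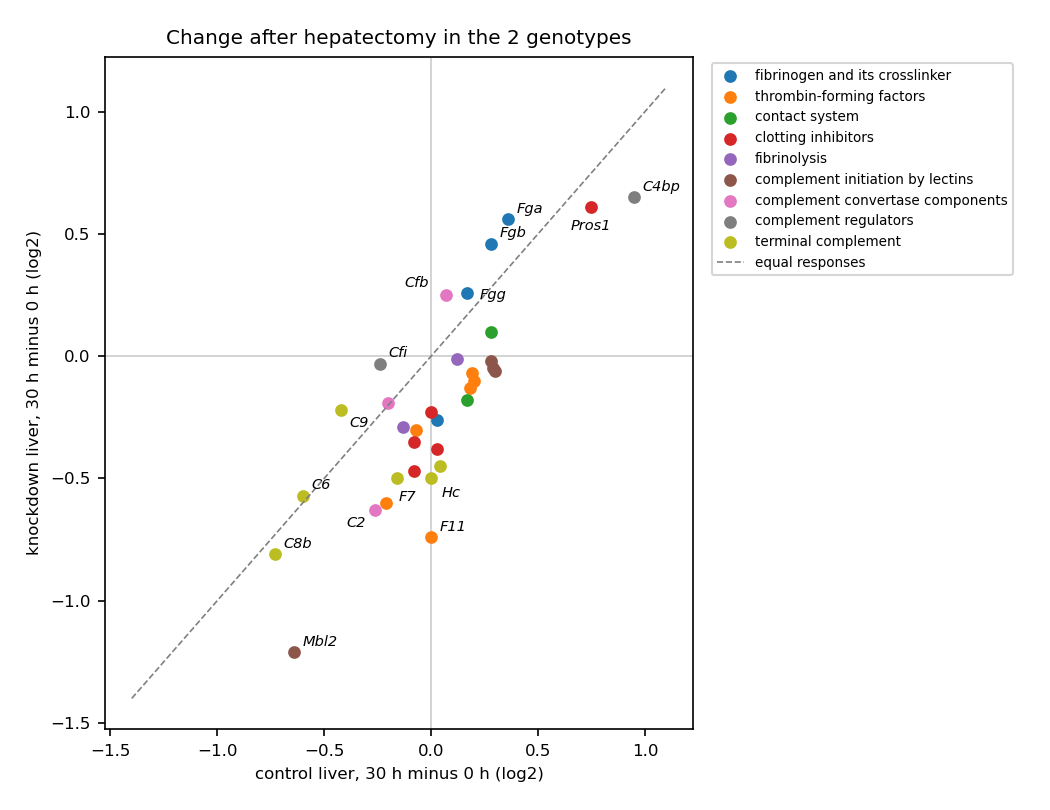
Response of each of the 34 genes in control liver (x axis) and in knockdown liver (y axis), as the log2 difference of 30 h minus 0 h, coloured by role, with a dashed line where both are equal; each point rests on 4 arrays. C4bp, Pros1 and the fibrinogen chains lie at the upper right, Mbl2, C8b and C6 at the lower left, and 26 of 34 points lie below the line.

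The fibrinogen chains read higher at 30 h in both genotypes. Fga, the alpha chain, read 11.79 and 12.15 in control liver at 0 h and 30 h and 11.64 and 12.20 in knockdown liver. Fgb, the beta chain, read 11.25 and 11.53, and 11.19 and 11.65. Both 30 h arrays thus lay above both 0 h arrays for these chains, by 0.36 and 0.28 in control liver and by 0.56 and 0.46 in knockdown liver (1.28-, 1.21-, 1.47- and 1.38-fold). Over the scalings the control differences went down to 0.13 for Fga and 0.05 for Fgb, and the knockdown differences to 0.49 and 0.32. Fgg, the gamma chain, read 12.12 on both 0 h arrays and 12.29 and 12.38 at 30 h. Its difference was 0.17 in control liver, which turned to -0.06 when centred on the genes above percentile 90, and 0.26 in knockdown liver. The knockdown response exceeded the control response in each chain, by 0.20, 0.18 and 0.09 for Fga, Fgb and Fgg. Their promoters, printed above, differ in the motifs they hold. F13b, the carrier subunit of the factor that crosslinks fibrin, read 6.24 and 6.27 in control liver and 6.48 and 6.22 in knockdown liver. Its control difference of 0.03 has no settled sign over the scalings, and its knockdown difference was -0.26.

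The factors that lead to thrombin read lower at 30 h in knockdown liver, all 6 of them, with a median of -0.22. Of the genes above percentile 90, 53.1% read lower there. In control liver 3 of the 6 factors were above 0, 2 below and 1 at 0. Only the negative differences of F7 and F9 kept their sign there in all scalings. F11, the factor that amplifies thrombin formation by activating factor IX, read 6.73 on both control arrays, 6.79 in knockdown liver at 0 h and 6.05 in knockdown liver at 30 h. One array thus stood below the other three, by 0.74 (1.67-fold) against the knockdown array at 0 h. F7, the factor that starts clotting together with tissue factor, read 7.03 and 6.82 in control liver and 7.08 and 6.48 in knockdown liver. F9, which is deficient in haemophilia B, read 7.37 and 7.30 in control liver and 6.98 and 6.68 in knockdown liver, so that both knockdown arrays lay below both control arrays. F2, which encodes prothrombin, read 10.14 and 10.32, and 10.53 and 10.40. F5, the cofactor of factor X, read 8.21 and 8.40, and 8.07 and 8.0. F10, the protease that cuts prothrombin, read 8.02 and 8.22, and 8.28 and 8.18. For F2, F5 and F10 the control differences of 0.18, 0.19 and 0.20 changed sign in at least 1 scaling, while the knockdown differences of -0.13, -0.07 and -0.10 did not. In the contact system, which starts clotting on charged surfaces, F12 read 8.17 and 8.34 in control liver and 8.19 and 8.01 in knockdown liver. Kng1, the kininogen that releases bradykinin, read 11.12 and 11.40, and 11.25 and 11.35. The control difference of F12 (0.17) and the knockdown difference of Kng1 (0.10) had no settled sign over the scalings.

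Among the inhibitors of clotting, Pros1 stood apart from the rest. Pros1, which encodes protein S, the cofactor of activated protein C, read 6.56 in control and 6.59 in knockdown liver at 0 h and 7.31 and 7.20 at 30 h. Both 30 h arrays were above both 0 h arrays, by 0.75 (1.68-fold) and 0.61 (1.53-fold). Over the scalings these differences ran from 0.50 to 0.77 and from 0.56 to 0.67. The other inhibitors read lower at 30 h in knockdown liver. Proc, which encodes protein C, read 9.15 and 9.07 in control liver and 9.51 and 9.04 in knockdown liver. Serpinc1, antithrombin, read 10.57 and 10.60, and 10.91 and 10.53. For both, the knockdown array at 0 h was the highest of the 4. Serpind1, heparin cofactor II, differed by 0.00 and -0.23 in the control and knockdown response, and Proz, the cofactor of an inhibitor of factor Xa, by -0.08 and -0.35. The 0.03 of Serpinc1 and the 0.00 of Serpind1 in control liver have no settled sign. In fibrinolysis, Serpinf2, the plasmin inhibitor, differed by -0.13 and -0.29, and Plg by 0.12 and -0.01; for Plg neither sign was settled.

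In complement, the median response was -0.16 in control and -0.22 in knockdown liver, with 8 of 15 and 13 of 15 genes below 0. Of the genes above percentile 90, 30.2% and 53.1% were below 0. C4bp, which encodes the binding protein that limits C4b activity, had the highest response of the 15 in both genotypes and read 8.90 and 9.85 in control liver and 8.99 and 9.64 in knockdown liver. Both 30 h arrays lay above both 0 h arrays, by 0.95 (1.93-fold) and 0.65 (1.57-fold), and by at least 0.66 and 0.58 in every scaling. The other regulator, Cfi, a protease that cleaves C3b and C4b, differed by -0.24 in control liver and by -0.03, with no settled sign, in knockdown liver.

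The genes of the membrane pore had a median response of -0.29 in control and -0.50 in knockdown liver. Of the 6, 4 and 6 lay below 0, beside 30.2% and 53.1% of the genes above percentile 90. C8b, which encodes the beta chain of C8, read 9.01 and 8.28 in control liver and 9.12 and 8.31 in knockdown liver. C6 read 9.76 and 9.16, and 9.69 and 9.12. For both genes the 2 arrays at 30 h lay below the 2 arrays at 0 h and the genotypes lay close together: the differences were -0.73 and -0.81 for C8b (1.66- and 1.75-fold lower) and -0.60 and -0.57 for C6 (1.52- and 1.48-fold lower). C9, the subunit that forms the ring of the pore, differed by -0.42 and -0.22. Hc, which encodes C5, read 8.69 on both control arrays, 8.68 in knockdown liver at 0 h and 8.18 in knockdown liver at 30 h. C8a, the alpha chain of C8, read 6.99 and 7.03 in control liver and 7.06 and 6.61 in knockdown liver. So 1 array, that of knockdown liver at 30 h, stood below the other three for Hc and C8a, as it did for F11; the control differences of Hc (0.00) and C8a (0.04) have no settled sign. C8g, the gamma chain, read 10.19 and 10.03, and 10.59 and 10.09. C8a and C8b lie next to each other with no protein-coding gene between them in the RefSeq annotation, and their control responses were 0.04 and -0.73.

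The lectin genes, which start complement on sugars of microbes, included the widest range of all. Mbl2, mannose-binding lectin C, read 8.38 and 7.74 in control liver and 9.37 and 8.16 in knockdown liver. The knockdown array at 0 h was the highest and the control array at 30 h the lowest. The response was -0.64 (1.56-fold lower) in control and -1.21 (2.31-fold lower) in knockdown liver, and over the scalings it ran from -0.94 to -0.62 and from -1.26 to -1.16. Mbl1, mannose-binding lectin A, read 7.90 and 8.18, and 8.06 and 8.04. The proteases that bind these lectins, Masp1 and Masp2, differed by 0.29 and 0.30 in control liver and by -0.05 and -0.06 in knockdown liver. Over the scalings the control differences went down to 0.03 and 0.07, and that of Mbl1 (0.28) to 0.02. The knockdown differences of Mbl1 (-0.02) and Masp1 have no settled sign. Of the convertase components, C2, the protease of the classical and lectin convertase, read 5.04 and 4.78, and 5.52 and 4.89. C4b differed by -0.20 and -0.19 and Cfb, factor B of the alternative pathway, by 0.07, with no settled sign, and 0.25. C2 and Cfb are neighbours in the annotation, and so are F7, F10 and Proz. C4b has a near-identical copy, C4a, which differed by 0.15 and -0.34; how far the probes tell the copies apart was not tested.

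**Figure D3:**
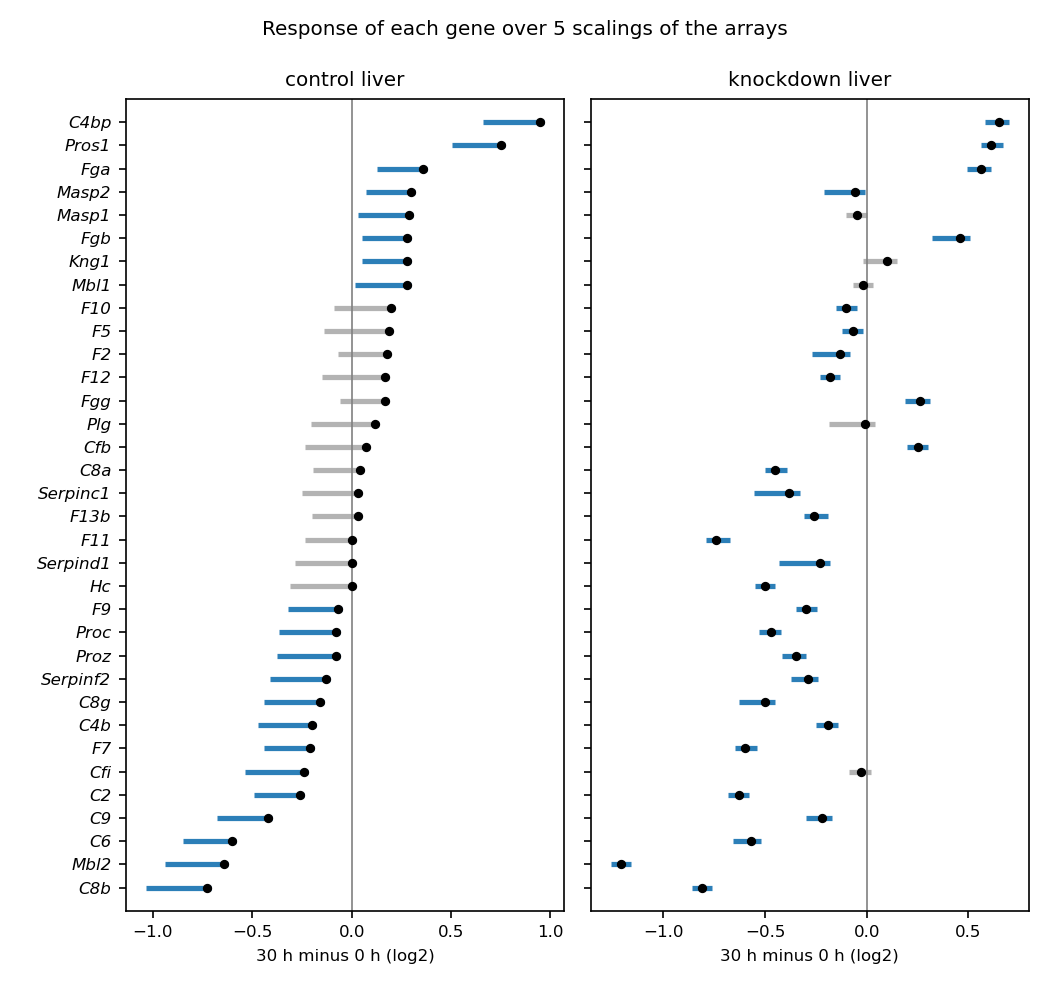
Response of each gene in control liver (left) and knockdown liver (right), as the log2 difference of 30 h minus 0 h, sorted by the control value: dots are the deposited scaling and bars span the lowest to the highest of 5 scalings, in grey where the sign is not the same in all. In control liver 8 genes are above 0 and 13 below in all 5 and 13 depend on the scaling; in knockdown liver the counts are 6, 23 and 5.

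Across the 34 genes the responses of the 2 genotypes, which share no array, correlated with Pearson's r of 0.82 and Spearman's rho of 0.79. Over the 1952 genes above percentile 90 these were 0.80 and 0.66, and over bright genes 0.46 and 0.29; all points of a response share the same 2 arrays, and genes are not replicates. In 7 genes both responses were above 0, in 13 both below, in 11 they had opposite signs and in 3 the control response was 0.

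Before surgery few of the 34 genes were 1.5-fold apart between the knockdown and control arrays, as were few of the genes above percentile 90. No gene of the 34 was 2-fold apart at 0 h, where 1.25% of bright genes were higher by 2-fold or more in knockdown liver and 0.635% lower; for genes above percentile 90 the shares were 0.256% and 0.154%. Mbl2 came nearest, 0.99 higher (1.99-fold) in knockdown liver, and between 0.84 and 0.99 over the scalings. It was the only 1 of the 34 past 1.5-fold, against 7.7% of bright genes higher and 4.49% lower, and 3.74% and 0.615% of genes above percentile 90. The next were Masp2 (0.49), C2 (0.48), C8g (0.40), F2 (0.39), Proc (0.36) and Serpinc1 (0.34), all higher in knockdown liver, and F9 (-0.39), lower. The median was 0.08, with 23 genes above 0 and 9 below (56.7% and 42.2% of bright genes). Of the genes above percentile 90, 65.8% were above 0 and 32.5% below. The median was 0.06 for bright genes and 0.11 for the genes above percentile 90. After cyclic loess that of the 34 was -0.03, with 11 above and 23 below.

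At 30 h no gene of the 34 was 2-fold apart between the genotypes either, while in knockdown liver 1.14% of bright genes were higher by 2-fold or more and 2.16% lower, and 0.205% and 0.461% of genes above percentile 90. At 1.5-fold 0 were higher and 2 lower, F11 (-0.68, 1.60-fold lower) and F9 (-0.62, 1.54-fold lower), against 6.31% and 12.5% of bright genes and 1.08% and 6.4% of genes above percentile 90. Neither reached 1.5-fold after quantile normalization (F11 -0.48, F9 -0.42), cyclic loess (-0.50 and -0.44) or centring on the genes above percentile 90 (-0.49 and -0.43). Hc (-0.51), C8a (-0.42), F5 (-0.40), F7 (-0.34) and F12 (-0.33) followed, and over the scalings these went as near 0 as -0.32, -0.23, -0.21, -0.15 and -0.14. Of the 6 thrombin-forming factors 5 were below 0, with a median of -0.37, though F10 (-0.04) has no settled sign. Below 0 were also 72.7% of the genes above percentile 90. In the other direction Mbl2 was 0.42 higher, and the fibrinogen chains were 0.05 to 0.12 higher with no settled sign. The median over the 34 was -0.05, with 13 above and 21 below (37.8% and 61.2% of bright genes). Of the genes above percentile 90, 25.5% were above 0 and 72.7% below. The median was -0.11 for bright genes and -0.16 for the genes above percentile 90. That of the 34 was 0.06 after cyclic loess, with 20 above and 14 below. Centred on the genes above percentile 90 it was 0.14, with 25 above and 9 below. With each array centred on its median it went the other way, to -0.14, with 5 above and 28 below.

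The difference of responses, knockdown minus control, uses all 4 arrays. It was 2-fold or more in 0 of 34 genes, where 3.24% of bright genes were above 0 by 2-fold or more and 7.43% below, and 0.41% and 3.02% of genes above percentile 90. F11 alone was past 1.5-fold (-0.74), against 9.63% of bright genes above and 22.5% below, and 2% and 19.4% of genes above percentile 90. It was not past it after quantile normalization (-0.47), cyclic loess (-0.47) or centring on the genes above percentile 90 (-0.46). Next came Mbl2 (-0.57), Hc (-0.50), C8a (-0.49), Serpinc1 (-0.41), F7 and Proc (-0.39 each); these too went nearer 0 in other scalings, Mbl2 to -0.28 and F7 to -0.11. The highest were Cfi (0.21), Fga (0.20), C9 (0.20), Fgb (0.18) and Cfb (0.18). It was above 0 in 8 genes, against 36.1% of bright genes, and below 0 in 26 (76.5%), against 63.2% of bright genes and 78% of the genes above percentile 90. The median of -0.28 lay 0.02 below that of the genes above percentile 90 (-0.26). It was -0.03 after quantile normalization and after cyclic loess and 0 when centred on those genes, with 20, 20 and 17 genes below 0.

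**Figure D4:**
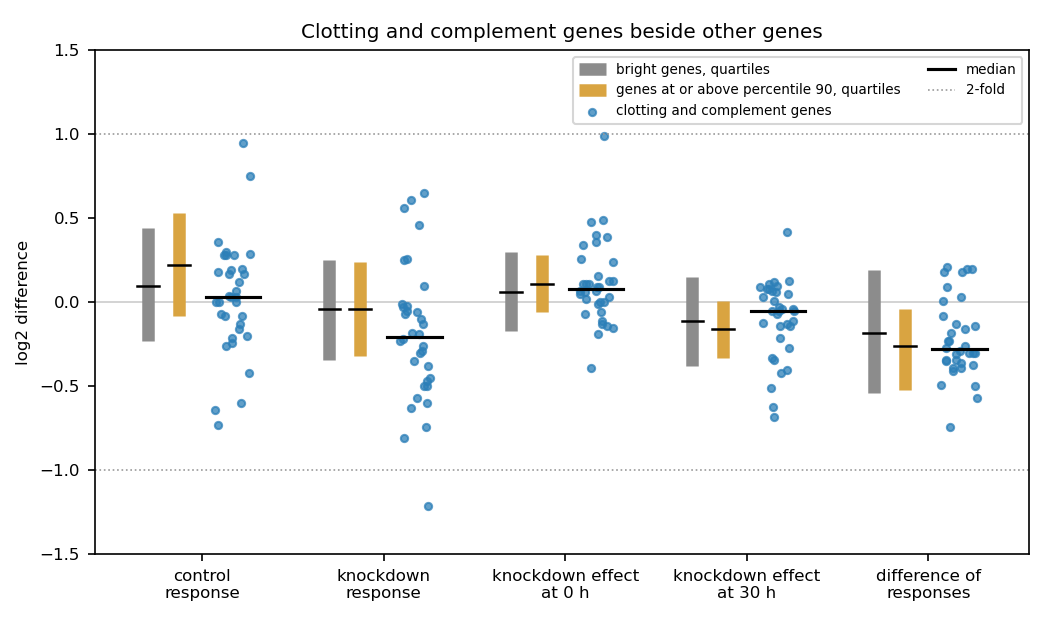
Log2 differences of the 34 genes (blue points, black line at the median) in the 5 comparisons, beside the quartiles (bars) and median (line) of 9759 bright genes (grey) and of 1952 genes at or above percentile 90 (yellow); dotted lines mark 2-fold. In the difference of responses the median of the 34 is -0.28 and that of the genes above percentile 90 is -0.26, and a single point, Mbl2 in the knockdown response, lies beyond 2-fold.

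Other genes of these pathways, from lists chosen with earlier results known, are given in the deposited scaling only. Over all 19505 genes, 4.19% were higher by 2-fold or more and 2.22% lower in the control response, and 2.72% and 2.01% in the knockdown response. The shares were 1.45% and 1.25% for the knockdown effect at 0 h, 2.07% and 1.86% at 30 h, and 6% and 5.82% for the difference of responses. Of 20 measured of 21 other clotting and fibrinolysis genes, 1 was higher by 2-fold or more and 0 lower in each response. It was Thbd, thrombomodulin, the endothelial receptor that turns thrombin into an activator of protein C, which read 3.46 and 6.34 in control liver and 3.74 and 6.17 in knockdown liver. Its 0 h values lie below the medians of those arrays (3.77 and 3.79), so the differences of 2.88 and 2.43 rest on dim values at 0 h. Serpina10, the inhibitor to which protein Z is the cofactor, read 9.71 and 10.47, and 9.79 and 10.72, so the inhibitor read higher at 30 h where Proz did not. Kng2, a second kininogen gene, differed by 0.51 and 0.53. The enzymes of vitamin K-dependent carboxylation, which F2, F7, F9, F10, Proc, Pros1 and Proz need, differed by 0.08 and -0.33 (Ggcx) and by 0.04 and -0.53 (Vkorc1). Between the genotypes, 1 of the 20 was at least 2-fold higher at 0 h, Tfpi, the tissue factor inhibitor (1.21), and 1 at least 2-fold lower at 30 h, tissue factor itself, F3 (-1.01); both are dim, with values between 2.75 and 4.07. In the difference of responses Tfpi (-1.19) and Procr, the protein C receptor (-1.0), were 2-fold or more below 0; Procr is dim too, between 2.31 and 3.07.

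Of 27 measured of 30 other complement genes, 2 were higher by 2-fold or more in the control response, Cd55, which speeds the decay of convertases (1.00), and Vsig4, a complement receptor of Kupffer cells (1.12). In the knockdown response 2 were at least 2-fold lower, Cd59a, which blocks the pore on host cells (-1.07), and Colec11 (-1.0). Colec11 also stands in the stellate marker list. Between the genotypes 1 of the 27 was at least 2-fold higher at 0 h, C5ar1, a receptor for C5a (1.07), and 0 at 30 h. C5ar1 is dim: it read 2.5 in control and 3.57 in knockdown liver at 0 h, where the array medians were 3.77 and 3.79. C1qa, C1qb and C1qc, the recognition subunits of the classical pathway, also stand in the Kupffer marker list, as Vsig4 does. Chosen for that after their values were seen, they differed by 0.00, 0.33 and 0.54 in control liver and by -0.62, -0.42 and -0.45 in knockdown liver. The 10 Kupffer and macrophage markers did not move together in the knockdown response. There 7 were below 0 and 3 above, Marco (1.59), Cd5l (0.81) and Timd4 (0.39). Vsig4 was also the 1 gene of the 27 past 2-fold in the difference of responses (-1.48).

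Other secreted hepatocyte proteins had a median response of 0.10 in control and -0.07 in knockdown liver, over 18 of 19 measured. Of the 18, 3 were 2-fold or more higher in control liver and 2 in knockdown liver: Itih4 (1.32 and 1.52), Itih3 (1.14 and 1.46) and, in control liver, Itih2 (1.04), all heavy chains of the inter-alpha-inhibitor family. Alb was at 12.65, 12.65, 12.69 and 12.63. Of 12 measured of 13 hepatocyte transcription factors, Cebpd was at least 2-fold higher (1.41 and 1.01) and Cebpa at least 2-fold lower (-1.05 and -1.39) in both responses. Stat3 differed by 0.36 in control and -0.42 in knockdown liver, and Hnf4a by 0.07 and 0.14. In the difference of responses 11 of the 12 were below 0, where 78% of the genes above percentile 90 were, and Hnf4a (0.07) was the only 1 above.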

How the data were processed

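Per the labels' protocols, total liver RNA gave biotin-marked cDNA (GeneChip WT Plus kit), which was hybridised to 1 array for each group. Probe set values were deposited as log2 expression. Per the submitters' processing notes, RMA and Affymetrix Expression Console were used; their versions were not stated there. Of 22206 probe sets, 19572 carried 1 symbol in the platform annotation and 2634 were unnamed and left out. Each gene took its brightest probe set by the mean of the 4 arrays. Arrays were grouped by title. The 5 comparisons are log2 differences without a test, because 1 array per group has no replicate spread, and precision is limited by the number of arrays. The genes and lists were chosen with earlier results of these data known. Every measured gene of the 34 is named, with its 4 values where it differs by 2-fold or is a fibrinogen chain. The others of the 34 are given by values or range. Other lists give up to 3 genes with the largest differences, those a gene of the 34 is set against, and some more, such as Alb and Hnf4a. Alternatives were 4 other scalings (quantile and cyclic loess with limma 3.58.1), the mean of probe sets, a filter at percentile 75, thresholds of 1.5-fold and 3-fold, and each pathway alone. The code that takes differences and counts was tested on simulated data with shifts of known size, which says nothing about the findings. One labelled item is left out.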

Additional observations from a re-analysis of the deposited data

How the results depend on the processing

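With 1 array per group, no replicate could be left out. No paired analysis was possible because each group holds 1 array and the result comes from no test. The mean of probe sets could move nothing, since each of the 34 genes has 1 probe set. Centring on the array medians and the filter at percentile 75 moved no median by over 0.1 and no count of genes past 2-fold. The median of the control response was -0.23 after quantile normalization, -0.18 after cyclic loess, -0.20 when centred on the genes above percentile 90 and -0.16 for complement genes alone. The median knockdown effect was -0.027 at 0 h and 0.0552 at 30 h after cyclic loess, and 0.14 at 30 h when centred on the genes above percentile 90. The median difference of responses was -0.0331 after quantile normalization, -0.034 after cyclic loess and 0 when centred on the genes above percentile 90. In the control response, 1 gene, C8b, was at least 2-fold lower after quantile normalization. In the knockdown response the gene 2-fold lower is Mbl2, so the count was 0 without complement genes and 0 at 3-fold. A threshold of 1.5-fold gave 2 higher and 3 lower in the control response, 2 and 5 in the knockdown response, 1 higher at 0 h, 2 lower at 30 h and 1 lower in the difference of responses. No gene past 1.5-fold changed sign under any scaling, but several fell short of 1.5-fold in some. After quantile normalization, cyclic loess and centring on the genes above percentile 90, F11 and F9 at 30 h fell short. So did F11 in the difference of responses, Pros1 in the control response and F7 in the knockdown response. C6 in the control response and C4bp, Pros1 and C2 in the knockdown response fell short in at least 1 scaling. Over the 34 genes and 5 comparisons, 117 of 170 single values moved by over 0.1 after cyclic loess, 107 after quantile normalization and 102 when centred on the genes above percentile 90; the causes were not tested.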
